A study of Mus musculus with 9 samples.

Results

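Gene expression in the aortic arch of mice with diet-driven atherosclerosis was compared with that of treated and healthy mice pooled, to find the genes at which the diseased arch stood apart from both. The diseased arch is the model group, 3 of the 9 RNA sequencing libraries. These libraries are from ApoE-/- mice, which lack functional apolipoprotein E in every tissue, fed a high-fat diet for 15 weeks with no ZCL. The high dose group, 3 libraries, has the same genotype and diet and was given ZCL by gavage at 5.12 g/kg/day over those 15 weeks. ZCL is Ziziphora clinopodioides Lam., a plant of the mint family. The control group, 3 libraries, is from C57BL/6J mice, which ate standard diet, and the background strain of the ApoE-/- mice is not given. The control group therefore differs from the model group in both genotype and diet, while the high dose group differs from it only in the ZCL treatment as far as the labels say. The labels name no vehicle gavage for the model or control mice. The study describes 120 mice in groups of 20. Whether libraries within a group stand for separate mice or for pools is not said in the labels, so the p-values below measure only the spread between these libraries, which may be technical.

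The gene table holds FPKM (fragments mapped to a gene, scaled for its length and for the library's total), for 21989 genes. Of these, 12895 reached at least 1 FPKM in at least 3 of the 9 libraries and were tested. A gene was kept as standing apart when all 3 model values lay on one side of all 6 others, and 862 genes did, 6.68% of those tested. All 3 model values were above the 6 others at 358 genes (2.78%) and below them at 504 genes (3.91%). The 9 libraries themselves were checked first. Apoe, which encodes the apolipoprotein removed in the knockout, had 18.9, 33.4 and 24.5 FPKM in the model libraries, against 30.3, 93.7 and 25.4 FPKM in the high dose libraries and 829.2, 1006 and 339.9 FPKM in the control libraries. The model and high dose libraries were thus all under the control libraries, as the genotype labels state, with a low signal remaining in each knockout library.

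Atherosclerosis is a chronic inflammation of the artery wall in which lipoproteins held in the intima are taken up by macrophages that become foam cells, while smooth muscle cells leave their contractile state, divide and lay down collagen and fibronectin. In ApoE-/- mice the liver clears remnant lipoproteins poorly and plaque forms early in the aortic arch and root. The arch also carries an intrinsic circadian clock, in which the CLOCK and BMAL1 proteins drive genes for their own repressors and for the output factors of the PAR bZIP family. It is surrounded by fat, nerve fibres and ganglia, and it joins the heart, so dissected tissue can hold RNA of all of these.

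Libraries differed within groups as well as between them. Relative depth, read from the spacing of the lowest FPKM values, was 100, 80.8 and 71.1% of the deepest library in the model libraries. It was 77.2, 68.6 and 70.3% in the high dose libraries and 76.1, 56.3 and 61.5% in the control libraries. The deepest library was thus model 1 and the shallowest control 2. The part of depth in the counts was not tested, and the absolute depth is unknown. Contractile smooth muscle genes, the marker set of the artery wall, were found in every library, with their summed level at 2876 to 6991 FPKM in the model libraries, 859.6 to 8091 in the high dose libraries and 2747 to 5656 in the control libraries. Cardiac muscle genes such as Myh6, the alpha myosin heavy chain of the adult mouse heart, reached 634 and 1554 FPKM in high dose 2 and 3 and 2729 and 807 FPKM in control 1 and 2. The other 5 libraries, all 3 model libraries among them, had 1.85 to 6.34 FPKM. High dose 2 and control 2 were also rich in the club cell gene Scgb1a1, high dose 1 in nerve genes and control 3 in the brown fat gene Ucp1. In such bulk tissue, fewer cells of a type and less RNA per cell cannot be told apart.

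The count of 862 genes was set beside the same count for each other group. The high dose libraries stood apart from the 6 others at 622 genes (4.82%), 228 above (1.77%) and 394 below (3.06%). The control libraries did so at 210 genes (1.63%), 80 above (0.620%) and 130 below (1.01%). The 3 counts come from the same 9 libraries and are given side by side. The share of genes below was 504 of 862 with FPKM as deposited. It turned with the scaling, to 415 lower against 591 higher genes after quantile normalization and to 338 lower against 579 higher genes with the haemoglobin genes removed and each library rescaled, while median-ratio rescaling gave 541 lower and 472 higher.

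**Figure D1:**
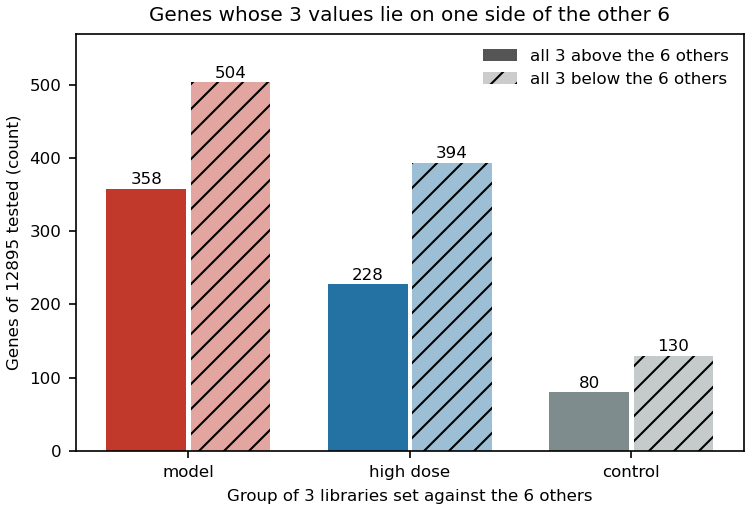
Number of genes, of 12895 tested, whose 3 values in one group all lie above (solid bars) or all below (hatched bars) the values of the 6 other libraries, for the model, high dose and control groups. The model group has the tallest pair of bars, 358 and 504, and the control group the shortest, 80 and 130.

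Differences are given as model minus the mean of the 6 other libraries as log2(FPKM + 1), where the added 1 shrinks differences between low values, with the standard error of a limma fit of 3 against 6 libraries. Among the genes above, the median size of this difference was 0.65 (quartiles 0.47 and 0.99), and 83 of 358 differed by more than 1. Among the genes below, the median size was 0.94 (quartiles 0.55 and 1.63), and 232 of 504 differed by more than 1. The step between the nearest model library and the nearest other library was small at most members, with a median of 0.11 for genes above and 0.13 for genes below, and it exceeded 1 at 9 genes in all. In limma with Benjamini-Hochberg adjustment over the 12895 genes, 1 gene passed an adjusted p of 0.05 (0.00775% of those tested), and 1514 genes (11.7%) had an unadjusted p under 0.05, 674 higher (5.23%) and 840 lower (6.51%). Limma with a weight fitted to each library called 906 genes, 313 higher and 593 lower, and without control 3 the equal-weight fit called 16, 2 higher and 14 lower. The other 66 members picked by the naming rule had adjusted p-values of 0.149 to 0.484 in that limma fit, so for them the text gives positions and values and no call.

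The gene that passed was Ntrk3, which encodes TrkC, the receptor tyrosine kinase for neurotrophin-3, described in neurons and in vascular smooth muscle. Ntrk3 (chromosome 7, 78175959 to 78738012, minus strand, GRCm38) had 16.8, 27.4 and 23.7 FPKM in the model libraries, against 2.45, 4.23 and 2.69 FPKM in the high dose libraries and 3.13, 4.54 and 5.36 FPKM in the control libraries. The 3 model libraries lay together far above all others, and the high dose and control libraries overlapped each other. Ntrk3 averaged 22.6 ± 5.38 FPKM in model libraries (SD, n = 3) and 3.73 ± 1.15 FPKM in the 6 others (SD, n = 6), a 6.06-fold higher mean, and rose by 2.33 ± 0.2505 (limma adjusted p = 0.0459). Its step of 1.48 was the one above 1 among the genes that were higher. Against each group alone the difference was 2.14 from control and 2.52 from high dose, and high dose minus control was -0.38 (95% interval -1.001 to 0.25). The call is close to its threshold: the adjusted p in limma was 0.0162 without control 3 and 0.0987 to 0.626 without any other single library, and it was 0.0723 and 0.0809 with the rescalings by median ratio and by quantiles.

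Other genes of the neurotrophin pathway did not share that pattern. The ligand Ntf3 (neurotrophin-3) overlapped between the groups, as did Ntrk2 and the sorting receptor Sort1. Ngfr, the common p75 receptor of sympathetic neurons and glia, had 0.236, 0.756 and 0.703 FPKM in the model libraries, against 243, 30.1 and 0.908 FPKM in the high dose libraries and 11.2, 33.6 and 15.6 FPKM in the control libraries. It lay below all others in the model libraries, narrowly below high dose 3.

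Circadian clock genes formed one group of related members. Of 18 clock genes tested, 5 lay below all others in the model libraries and 1 lay above, 33.3% against 6.68% of all genes, and the median difference over the 18 was -0.35 against -0.01 over all genes. By group, the list median was -0.53 for model minus high dose, -0.0027 for model minus control and 0.33 for high dose minus control, from the same 9 libraries, so the list median was near 0 against the control libraries. Nr1d1 (chromosome 11, 98767932 to 98775333, minus strand), which encodes the haem-binding repressor REV-ERBα, had 44.6, 36.6 and 41.5 FPKM in the model libraries, against 112, 134 and 101 FPKM in the high dose libraries and 130.1, 126 and 86.7 FPKM in the control libraries. The groups were widely separated, the highest model library being at 44.6 FPKM and the lowest other library at 86.7 FPKM. The mean was 40.9 ± 4.04 FPKM in model libraries and 115 ± 18.5 FPKM in the 6 others (SD, n = 3 and 6), a difference of -1.46 ± 0.194, and high dose minus control was 0.03 (95% interval -0.503 to 0.56).

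Of the output factors of the clock, Dbp and Tef also lay below and Nfil3 lay above. Dbp (chromosome 7, 45705088 to 45710203, plus strand), a PAR bZIP activator with one of the widest daily swings of any transcript, had 19.1, 6.48 and 5.57 FPKM in the model libraries, against 48.7, 81.6 and 74.96 FPKM in the high dose libraries and 52.2, 50.2 and 27.4 FPKM in the control libraries. Model 1 was higher than the other model libraries, and control 3 was the lowest of the remaining 6. The difference was -2.43 ± 0.416. Tef, a second PAR bZIP activator, had 31.3, 36.6 and 33.7 FPKM in the model libraries, against 54.8, 49.3 and 52.3 FPKM in the high dose libraries and 60.3, 58.9 and 45.8 FPKM in the control libraries, with a difference of -0.64 ± 0.16004. Nfil3, the bZIP repressor that binds the same sites as Dbp and Tef, lay on the other side, with 6.87, 8.47 and 9.35 FPKM in the model libraries, against 5.24, 3.79 and 5.33 FPKM in the high dose libraries and 1.95, 2.94 and 3.05 FPKM in the control libraries, a difference of 1.01 ± 0.265. For Nfil3 the high dose libraries stood between the other groups, all above the control libraries.

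Ciart (chromosome 3, 95878503 to 95882251, minus strand), which encodes the repressor CHRONO, and Cry2, a cryptochrome repressor, completed the set. Ciart had 1.19, 2.02 and 1.76 FPKM in the model libraries, against 10.4, 9.02 and 10.1 FPKM in the high dose libraries and 5.76, 4.92 and 3.36 FPKM in the control libraries. Here the high dose libraries were also all above the control libraries, at 0.95 (95% interval 0.42 to 1.48), and the model difference from the 6 was -1.56 ± 0.328. Cry2 had 8.04, 7.702 and 7.77 FPKM in the model libraries, against 18.8, 16.9 and 10.9 FPKM in the high dose libraries and 16.3, 13.1 and 9.38 FPKM in the control libraries, with control 3 and high dose 3 nearest to the model values. The other 12 clock genes overlapped. Arntl, which encodes BMAL1, had 3.97, 5.34 and 4.21 FPKM in the model libraries, against 4.05, 3.36 and 3.59 FPKM in the high dose libraries and 2.44, 2.85 and 2.18 FPKM in the control libraries, and its model libraries were above the control libraries but one lay under high dose 1. Per1 and Per2, the light- and hormone-inducible repressors, and Clock itself overlapped too. Time of day at tissue collection is not given in the labels.

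The clock is read through the E-box, CACGTG, the site that CLOCK and BMAL1 bind. The 250 bases before the RefSeq start site are shown for the clock members below in the model arch that hold this hexamer, 5′ to 3′ from the RefSeq promoter table (GRCm38.p6), with each CACGTG in capitals. For Ciart they are chr3:95882229-95882478, minus strand. For Tef, at its upstream start site, they are chr15:81802423-81802672, plus strand.
Ciart: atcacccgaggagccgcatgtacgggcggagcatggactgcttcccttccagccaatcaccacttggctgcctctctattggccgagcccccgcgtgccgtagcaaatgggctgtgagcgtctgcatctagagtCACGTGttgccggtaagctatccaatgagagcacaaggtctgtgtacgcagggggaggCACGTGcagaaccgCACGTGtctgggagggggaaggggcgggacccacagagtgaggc
Tef: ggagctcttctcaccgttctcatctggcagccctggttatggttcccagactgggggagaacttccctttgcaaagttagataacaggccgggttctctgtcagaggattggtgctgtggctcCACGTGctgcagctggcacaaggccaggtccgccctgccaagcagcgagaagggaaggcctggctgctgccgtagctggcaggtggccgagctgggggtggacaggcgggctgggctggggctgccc
The hexamer is its own reverse complement, so one search covers both strands. Ciart held it 3 times, and each of the RefSeq windows of Tef held it once, and no window of Nr1d1, Dbp, Cry2 or Nfil3 held it, which says only that these letters are not in those windows. Among the clock genes whose groups overlapped, the windows of Cry1 and Bhlhe41 and one window of Per1 held it too. Klf15, which is outside the clock list and lay below, held it 3 times. Over windows of 250 bases before and 50 after the start, CACGTG occurred in 7.15% of all 32851 windows. It occurred at 11.7% of the 9852 tested genes with a window, at 9.96% of 271 members above and at 10.3% of 390 members below.

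**Figure D2:**
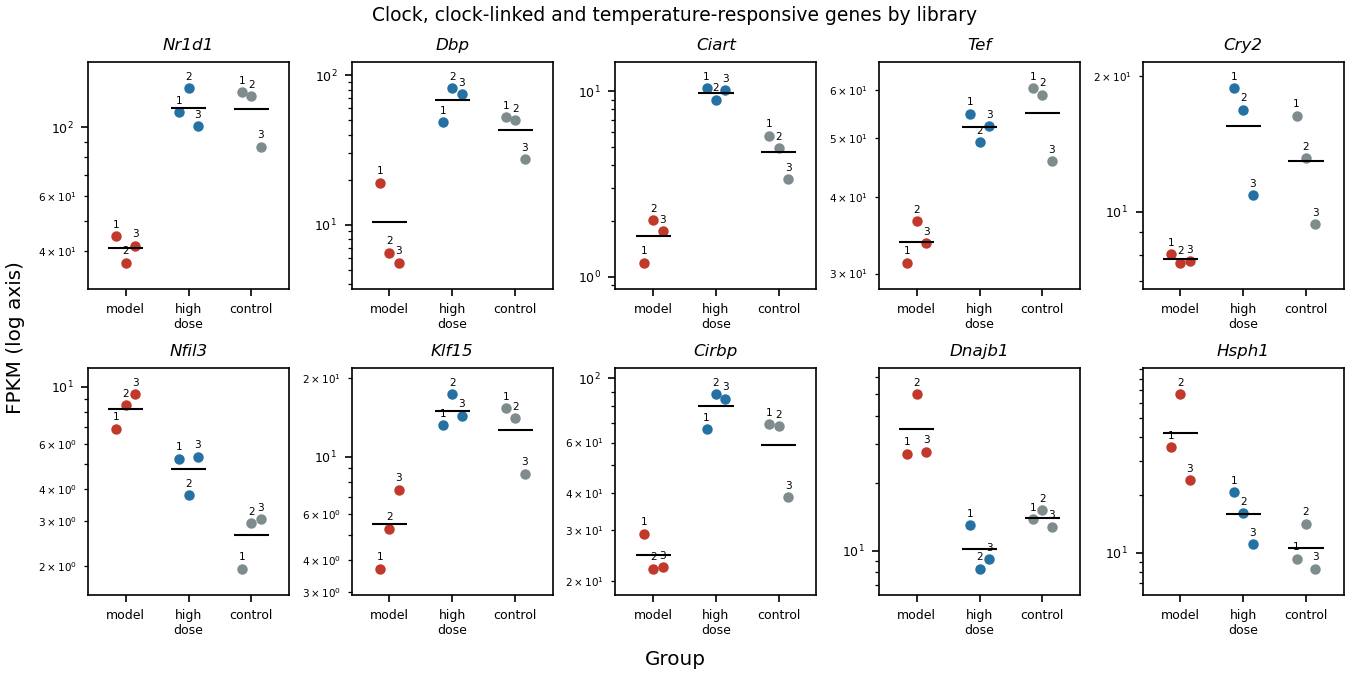
FPKM on a log axis by group for 6 clock genes, Klf15, Cirbp, Dnajb1 and Hsph1; each numbered point is 1 library and each bar the mean of 3. The model points lie below all others for Nr1d1, Dbp, Ciart, Tef, Cry2, Klf15 and Cirbp and above all others for Nfil3, Dnajb1 and Hsph1.

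Of 12 glucocorticoid-induced genes tested, 3 lay below in the model libraries and 1 above, 33.3% against 6.68% of all genes. The cold-responsive Cirbp also lay below. Klf15, a glucocorticoid-induced Krüppel-like factor that itself cycles daily, had 3.71, 5.28 and 7.46 FPKM in the model libraries, against 13.2, 17.4 and 14.4 FPKM in the high dose libraries and 15.4, 14.1 and 8.59 FPKM in the control libraries, a difference of -1.21 ± 0.2496. Cirbp, the cold-inducible RNA-binding protein, had 29.1, 22.02 and 22.2 FPKM in the model libraries, against 66.8, 87.999 and 85.1 FPKM in the high dose libraries and 69.6, 68.4 and 38.8 FPKM in the control libraries, a difference of -1.44 ± 0.2604. Ddit4 (REDD1), an inhibitor of mTORC1 induced by glucocorticoid and stress, had 15.8, 21.2 and 18.97 FPKM in the model libraries, against 85.6, 139 and 80.3 FPKM in the high dose libraries and 26.3, 57.5 and 44.4 FPKM in the control libraries. Every model library was below the others for these genes. For Ddit4 the high dose libraries were in turn above the control libraries, by 1.26 (95% interval 0.51 to 2.01). The third glucocorticoid-induced gene below was Mt1 and the one above was Sgk1, and Per1, Tsc22d3, Klf9 and Pdk4 were among those that overlapped. The list median was -0.49.

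Heat shock genes divided, with 3 of 12 tested without overlap, 25% against 6.68% of all genes. Dnajb1 (chromosome 8, 83608193 to 83612653, plus strand), the HSP40 co-chaperone that is among the most heat-inducible transcripts, had 27.2, 50.03 and 27.8 FPKM in the model libraries, against 13.03, 8.32 and 9.18 FPKM in the high dose libraries and 13.8, 15.2 and 12.8 FPKM in the control libraries. Hsph1, the HSP110 nucleotide exchange factor, had 35.6, 66.7 and 23.9 FPKM in the model libraries, against 20.8, 16.05 and 11.1 FPKM in the high dose libraries and 9.33, 14.2 and 8.301 FPKM in the control libraries. The model libraries were above all others for both, with model 2 the highest, at differences of 1.43 ± 0.2599 and 1.53 ± 0.355. Hspb8, a small heat shock protein of muscle, lay the other way, with 46.9, 63.8 and 52.4 FPKM in the model libraries, against 135, 193 and 146 FPKM in the high dose libraries and 189.8, 92.7 and 90.6 FPKM in the control libraries, a difference of -1.31 ± 0.2903. The remaining 9 tested members, among them Hspa8, Hsp90aa1 and Hsp90ab1, overlapped, and the median over 12 genes was -0.04. Inducible Hspa1a and Hspa1b were under 1 FPKM in every library and were not tested.

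HSF1, the factor that switches on heat shock genes, binds inverted repeats of GAA. The 30 bases that end the Hsph1 window, just after its RefSeq start site (chr5:149636287-149636316, minus strand, GRCm38.p6), are shown because they hold such a repeat, in capitals.
Hsph1: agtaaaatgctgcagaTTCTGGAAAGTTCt
The pattern searched was GAA, any 2 bases, TTC, any 2 bases and GAA on either strand, and these capitals are its reverse complement. It was in 0.603% of all windows, in 0.738% of the members above and in 0.513% of the members below. No window of Dnajb1 or Hspb8 held it. The windows of Hspd1 and Hspe1, mitochondrial chaperonin genes whose windows overlap each other, did hold it, and in FPKM the groups overlapped at both genes.

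Some matrix and smooth muscle genes of plaque remodelling lay higher in the model arch, with high dose 3 nearest to the model libraries for Fn1, Tnc and Col6a3 and the control libraries nearest for Klf4. Fn1 (chromosome 1, 71585520 to 71653200, minus strand), fibronectin, had 533, 325 and 198 FPKM in the model libraries, against 14.3, 24.9 and 143 FPKM in the high dose libraries and 44.2, 51.98 and 40.5 FPKM in the control libraries. The lowest model library was at 198 FPKM and the highest other, high dose 3, at 143 FPKM, and the difference of 2.95 ± 0.6099 was the largest among the members above. Tnc, tenascin C of injured vessel walls, had 24.9, 8.23 and 12.5 FPKM in the model libraries, against 2.69, 4.39 and 5.83 FPKM in the high dose libraries and 1.89, 3.64 and 1.75 FPKM in the control libraries. Col6a3, a chain of the microfibrillar type VI collagen, had 40.2, 15.4 and 19.9 FPKM in the model libraries, against 1.91, 6.7005 and 9.83 FPKM in the high dose libraries and 5.96, 7.88 and 5.81 FPKM in the control libraries, and high dose 1 was far under the rest. Klf4, which drives smooth muscle cells out of the contractile state, had 71.7, 120.1 and 93.9 FPKM in the model libraries, against 13.8, 20.9 and 28.4 FPKM in the high dose libraries and 48.3, 49.4 and 49.3 FPKM in the control libraries. For Klf4 the high dose libraries lay below the control libraries as well, by -1.24 (95% interval -1.901 to -0.57).

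Counted by list, 4 of 12 genes of modulated smooth muscle lay above and none below (Fn1, Klf4, Tnfrsf11b and Tnc), with a median of 1.37. Of 16 fibroblast and collagen genes, 4 lay above and none below (Col6a3, Col8a1, Col12a1 and Postn), with a median of 1.17. Those are 33.3% and 25% of the 2 lists, where 2.78% of all genes tested lay above and 3.91% below. Col1a1, a chain of the main fibrillar collagen, overlapped, with 499, 101 and 153 FPKM in the model libraries, against 11.2, 54.3 and 330.4 FPKM in the high dose libraries and 62.1, 74.999 and 30.02 FPKM in the control libraries, where high dose 3 was above 2 of the 3 model libraries. With high dose 3 left out, 10 of the 16 collagen and fibroblast genes lay above, against 10.6% of all genes in either direction. Leaving out a library can only add members, and each other library left out singly kept the count at 4. Mmp13, an interstitial collagenase, had 8.48, 4.64 and 31.7 FPKM in the model libraries, against 0.0458, 0.516 and 4.403 FPKM in the high dose libraries and 1.28, 0.0943 and 0.374 FPKM in the control libraries, a narrow separation from high dose 3. It was the 1 of 13 metalloproteinase and inhibitor genes tested to stand apart, 7.69% against 6.68% of all genes. None of 14 contractile smooth muscle genes stood apart.

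**Figure D3:**
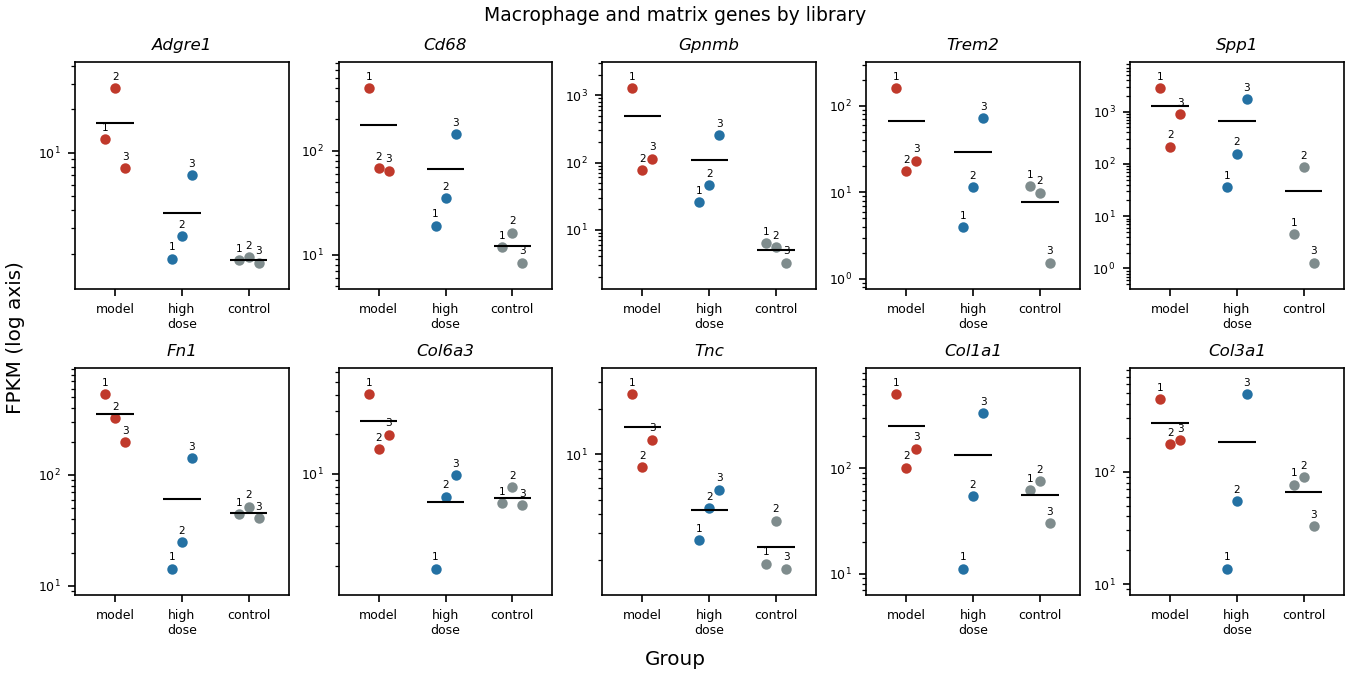
FPKM on a log axis by group for the macrophage genes Adgre1, Cd68, Gpnmb, Trem2 and Spp1 and the matrix genes Fn1, Col6a3, Tnc, Col1a1 and Col3a1; each numbered point is 1 library and each bar the mean of 3. High dose 3 lies within or above the range of the model points for Cd68, Gpnmb, Trem2, Spp1, Col1a1 and Col3a1 and stays below it for Adgre1, Fn1, Col6a3 and Tnc.

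Macrophage genes had high model levels but rarely stood apart, with high dose 3 among or near the model values. Adgre1 (chromosome 17, 57358691 to 57483527, plus strand), the F4/80 antigen of mouse macrophages, had 12.4, 27.8 and 7.797 FPKM in the model libraries, against 1.85, 2.65 and 6.96 FPKM in the high dose libraries and 1.803, 1.897 and 1.74 FPKM in the control libraries. It was the one member of 14 general macrophage genes to lie above all others, with 6.96 FPKM in high dose 3 just under 7.80 FPKM in model 3. That is 7.14% of the list, against 6.68% of all genes. None of 17 foam cell and lipid-associated macrophage genes stood apart. Gpnmb, a glycoprotein of lipid-laden macrophages, illustrates this with 1269, 76.6 and 114 FPKM in the model libraries, against 25.6, 46.5 and 253 FPKM in the high dose libraries and 6.34, 5.53 and 3.24 FPKM in the control libraries. The list medians were 1.56 and 1.33 even so. Without high dose 3, 8 of 14 and 10 of 17 lay above, against 10.6% of all genes without overlap in either direction. Without model 3, 4 of 14 and 2 of 17 did, against 10.9%. Of all 12895 genes, 574 and 686 lay above in these 2 settings. Leaving out a library can only add members. Each other library left out singly kept the 2 lists at Adgre1 alone. The summed level of the foam cell list was 14094 to 16814 FPKM in the model libraries, 4092 to 12542 in the high dose libraries and 5870.4 to 23077 in the control libraries, so the control libraries reached past the model libraries. Fabp4, the fatty acid binding protein also abundant in fat cells, made up most of that sum in control 3, at 17306 FPKM.

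The lysosomal, inflammatory, oxidant-source and antioxidant lists held few members, at 9.09%, 4.55%, 10% and 5.56%, against 6.68% of all genes. Npc2, the lysosomal carrier that hands cholesterol to NPC1, had 180.5, 148 and 155 FPKM in the model libraries, against 85.03, 44.5 and 91.7 FPKM in the high dose libraries and 52.7, 72.2 and 85.7 FPKM in the control libraries, a difference of 1.196 ± 0.263, and was 1 of 22 lysosomal genes to lie above. Gaa, the acid alpha-glucosidase that breaks down glycogen, was the one below, with 31.8, 26.8 and 29.2 FPKM in the model libraries, against 81.3, 48.6 and 38.5 FPKM in the high dose libraries and 76.3, 43.9 and 35.3 FPKM in the control libraries. Lgals1, the galectin-1 gene, had 802, 845 and 872 FPKM in the model libraries, against 302, 405 and 341 FPKM in the high dose libraries and 291, 480.2 and 502 FPKM in the control libraries, with tightly grouped model values and a step of 0.67. Nos2, inducible nitric oxide synthase, had 5.19, 6.03 and 5.79 FPKM in the model libraries, against 2.85, 1.43 and 3.16 FPKM in the high dose libraries and 1.33, 1.72 and 3.25 FPKM in the control libraries, and it was the one of 10 oxidant-source genes to stand apart. Cxcl9, the interferon-gamma-induced T cell chemokine, had 11.7, 18.8 and 17.8 FPKM in the model libraries, against 5.19, 1.61 and 1.71 FPKM in the high dose libraries and 2.96, 5.33 and 10.8 FPKM in the control libraries, with control 3 close behind, and was 1 of 22 chemokine, cytokine and adhesion genes. Gpx1, a glutathione peroxidase, had 897, 902 and 784 FPKM in the model libraries, against 590.0, 336 and 504 FPKM in the high dose libraries and 275, 317 and 544 FPKM in the control libraries and was 1 of 18 antioxidant genes. Without high dose 3 the lysosomal count was 8 above and 1 below, against 10.6% of all genes in either direction. Without model 3, 4 of the 10 oxidant-source genes and 4 of the 22 chemokine, cytokine and adhesion genes lay above, against 10.9% of all genes in either direction. Without model 1, 3 antioxidant genes lay above and 1 below, against 13.3% of all genes. In every other removal of a single library, each of these lists held 1 to 3 members.

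Several cell division genes lay higher in the model arch, at low absolute levels. Of 17 tested, Mki67, Ccnb2, Cdk1, Aurkb and Birc5 lay above all others and none lay below. They are 29.4% of the list, against 6.68% of all genes in either direction and 2.78% above, and the median difference was 0.83. In the broader pathways of the KEGG database the share was smaller. There 7 of 111 cell cycle genes lay above (6.31%) and 0 of 33 DNA replication genes did. Cdk1, the mitotic cyclin-dependent kinase, had 2.68, 3.17 and 2.35 FPKM in the model libraries, against 0.30005, 0.772 and 1.36 FPKM in the high dose libraries and 0.218, 1.47 and 0.484 FPKM in the control libraries. Mki67, the proliferation antigen Ki-67, had 5.28, 6.21 and 3.97 FPKM in the model libraries, against 1.87, 2.01 and 1.88 FPKM in the high dose libraries and 0.3695, 3.29 and 0.571 FPKM in the control libraries. Nusap1, a spindle-associated protein outside this list, had 5.23, 4.59 and 2.58 FPKM in the model libraries, against 1.27, 0.701 and 1.28 FPKM in the high dose libraries and 0.837, 1.599 and 0.656 FPKM in the control libraries, a difference of 1.300 ± 0.251. Control 2 was the highest of the other libraries for all 3 genes, and without it 13 of the 17 lay above, against 9.89% of all genes in either direction. With any other single library left out, 5 or 6 did. Summed T and NK cell genes were at 17.1 to 67.0 FPKM in the model libraries and 11.3 to 48.6 FPKM in the high dose libraries. They were at 115 FPKM in control 2 against 10.2 and 2.62 FPKM in control 1 and 3, and the part of these cells in the cell cycle counts was not tested.

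Further genes lay above the other libraries, among them Dusp8, the one of 10 dual-specificity phosphatase genes to stand apart, and Mtf1, of the metallothionein and zinc list. For the phosphatases that is 10% of the list, against 6.68% of all genes. Phka2, a regulatory subunit of liver phosphorylase kinase, had 14.9, 20.1 and 29.5 FPKM in the model libraries, against 8.02, 8.89 and 8.93 FPKM in the high dose libraries and 8.62, 9.79 and 8.68 FPKM in the control libraries, and the 6 other libraries lay within 8.02 to 9.79 FPKM. Dusp8, a phosphatase of stress-activated kinases, had 9.78, 8.61 and 8.84 FPKM in the model libraries, against 4.71, 5.07 and 3.07 FPKM in the high dose libraries and 4.28, 3.11 and 2.91 FPKM in the control libraries. Lctl, a klotho-family membrane protein, had 7.88, 26.4 and 18.6 FPKM in the model libraries, against 1.32, 3.64 and 3.78 FPKM in the high dose libraries and 0.355, 1.11 and 3.45 FPKM in the control libraries, a 7.75-fold higher mean and a step of 0.89. Its model libraries themselves ranged widely. Scube3, a secreted EGF-domain protein, Nedd9, a focal adhesion scaffold, and Filip1l, a filamin-interacting protein, differed by 1.38 ± 0.2804, 1.12 ± 0.233 and 1.400 ± 0.3002. Mtf1, the zinc-sensing factor that switches on metallothioneins, had 3.42, 3.001 and 3.39 FPKM in the model libraries, against 1.82, 1.81 and 1.45 FPKM in the high dose libraries and 2.096, 2.07 and 2.905 FPKM in the control libraries.

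**Figure D4:**
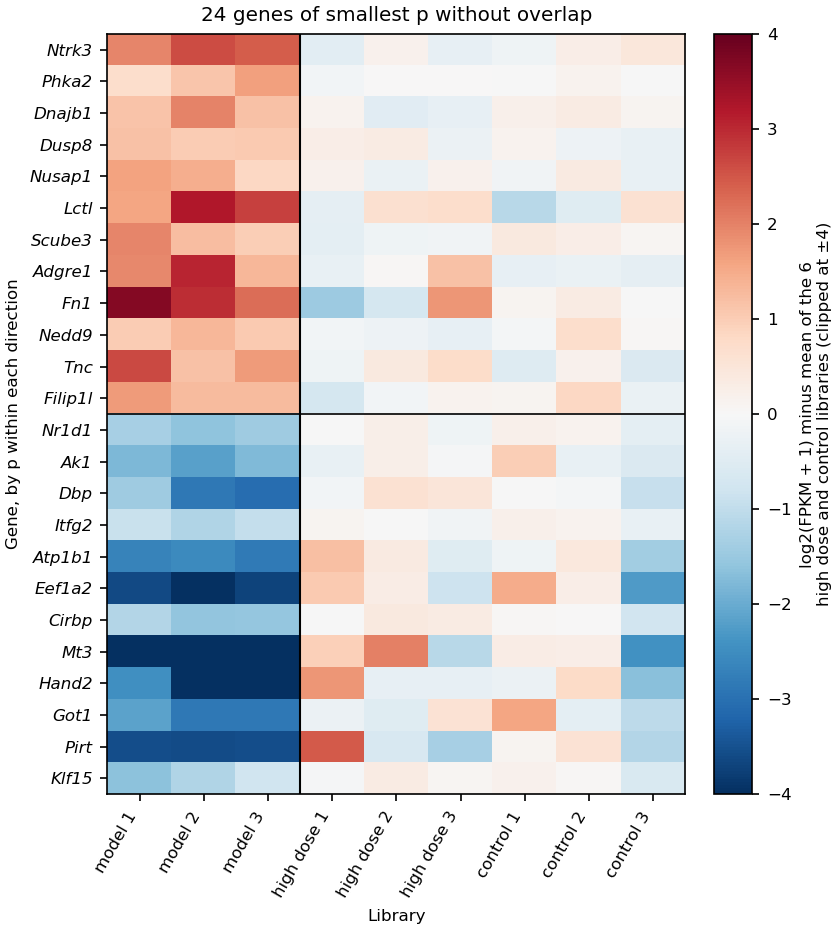
Log2(FPKM + 1) minus the mean of the 6 high dose and control libraries for the 12 genes of smallest p above (top) and below (bottom), with 1 column per library and the colour clipped at 4 either way. The 3 model columns hold one colour for each gene, while high dose 3 is warm for Adgre1 and Fn1 and control 3 is the bluest of the other 6 columns for Eef1a2, Mt3 and Hand2.

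Most red cell genes tested lay higher in the model libraries. Of 8 erythroid genes tested, 5 lay above and none below, 62.5% against 6.68% of all genes. The 5 included Hba-a1, Hbb-bs, Hbb-bt and Alas2, and the median difference over the list was 2.04. Haemoglobin genes took 14.3, 8.74 and 4.97% of all FPKM in model 1, 2 and 3, against 0.668, 0.569 and 4.60% in the high dose libraries and 3.70, 3.13 and 2.00% in the control libraries. Alas2, the erythroid enzyme that begins haem synthesis, had 427, 215 and 104 FPKM in the model libraries, against 12.4, 9.24 and 77.4 FPKM in the high dose libraries and 86.8, 72.5 and 69.9 FPKM in the control libraries. Model 1 was the highest library and model 3 the lowest of the model libraries. The haemoglobin copies are nearly identical in sequence and reads may have been divided between them. How much blood each sample held is not given, and its part in other genes' FPKM was not tested. The scaling with haemoglobin genes removed, given above, takes out only the share of FPKM that those genes held.

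Nerve and neuroendocrine genes made up another group below. Of 16 tested, 10 lay below in the model libraries and none above, 62.5% against 6.68% of all genes, and the median was -3.79. Stmn2, the growth-cone protein stathmin-2, had 4.92, 5.04 and 6.401 FPKM in the model libraries, against 444, 93.1 and 12.3 FPKM in the high dose libraries and 47.5, 164 and 46.9 FPKM in the control libraries. Snap25, a synaptic vesicle fusion protein, had 0.559, 0.112 and 0.0761 FPKM in the model libraries, against 266, 49.9 and 1.18 FPKM in the high dose libraries and 25.2, 95.7 and 15.8 FPKM in the control libraries. Th, tyrosine hydroxylase of catecholamine synthesis, had 0.323, 0 and 0.644 FPKM in the model libraries, against 599.8, 15.4 and 1.15 FPKM in the high dose libraries and 5.17, 128 and 32.6 FPKM in the control libraries. The model libraries were at or near 0 for most of the list, high dose 3 was the next lowest library and high dose 1 the highest. The summed level was 18.8 to 61.05 FPKM in the model libraries, 47.8 to 5260.0 in the high dose libraries and 286 to 1457 in the control libraries. Without high dose 3 all 16 lay below, against 10.6% of all genes in either direction. Without model 1, 13 did, and each other library left out singly kept 10. How much ganglion or nerve each dissection held, and its part in these values, was not tested.

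**Figure D5:**
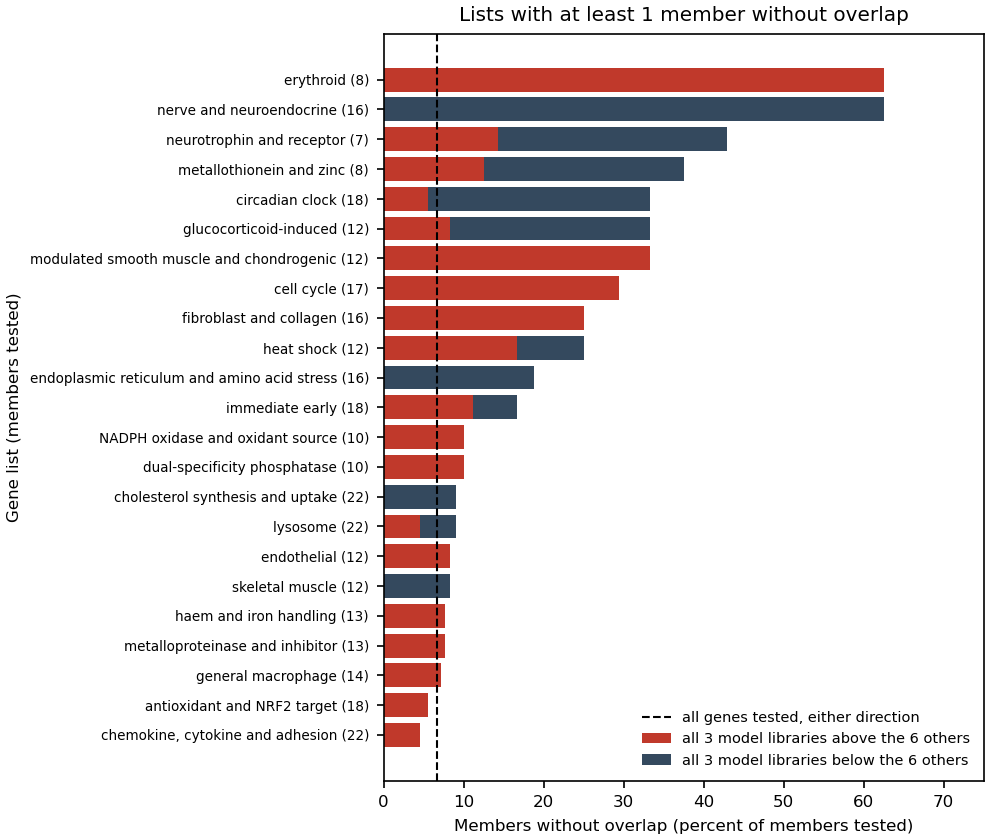
Share of tested members without overlap for the 23 gene lists with at least 1 such member, as percent of members tested (number in brackets); red is above and dark blue below in the model libraries, and the dashed line marks 6.68%, the share of all genes tested. The erythroid and nerve lists have the longest bars, at 62.5%, wholly red and wholly dark blue.

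Several of the named genes below are known from neurons or from muscle. Mt3 (chromosome 8, 94152607 to 94154146, plus strand), the brain metallothionein, had 0.264, 0.327 and 0.495 FPKM in the model libraries, against 53.9, 114 and 12.3 FPKM in the high dose libraries and 33.8, 33.1 and 4.29 FPKM in the control libraries, with a step of 1.82. Pirt, a regulator of sensory neuron channels, had 0.0434, 0 and 0.0305 FPKM in the model libraries, against 65.6, 6.67 and 3.78 FPKM in the high dose libraries and 12.003, 17.1 and 4.39 FPKM in the control libraries, with the widest step of those named, 2.19. Rab3b and Snap91, both of synaptic vesicles, had steps of 1.58 and 1.44. Eef1a2, the elongation factor form of muscle and neurons, had 6.73, 1.32 and 6.18 FPKM in the model libraries, against 196, 114 and 52.1 FPKM in the high dose libraries and 262, 113 and 18.7 FPKM in the control libraries, a difference of -4.23 ± 0.766. Hand2, a factor of sympathetic neurons and of the developing heart, had 4.55, 0.157 and 0.387 FPKM in the model libraries, against 103, 23.5 and 23.5 FPKM in the high dose libraries and 25.1, 50.5 and 8.54 FPKM in the control libraries, with model 1 above the other model libraries. Model libraries were thus far below, and control 3 was the closest of the others for Mt3, Eef1a2 and Hand2.

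Genes of broader expression were also below. Atp1b1, a subunit of the sodium pump, had 19.7, 21.4 and 17.5 FPKM in the model libraries, against 299, 169 and 93.1 FPKM in the high dose libraries and 116, 176 and 49.4 FPKM in the control libraries, a 7.71-fold lower mean in the model arch. Ak1, adenylate kinase of muscle and brain, had 9.15, 6.91 and 9.45 FPKM in the model libraries, against 27.7, 40.6 and 33.3 FPKM in the high dose libraries and 69.2, 27.7 and 22.8 FPKM in the control libraries, a difference of -1.91 ± 0.318. Got1, the cytosolic aspartate aminotransferase, had 16.8, 9.903 and 9.93 FPKM in the model libraries, against 66.001, 55.1 and 117 FPKM in the high dose libraries and 234, 58.8 and 36.9 FPKM in the control libraries. Itfg2, part of the KICSTOR complex that restrains mTORC1, had 4.35, 3.32 and 4.12 FPKM in the model libraries, against 9.73, 8.88 and 8.001 FPKM in the high dose libraries and 10.3, 9.92 and 7.003 FPKM in the control libraries, with a step of 0.58 and tight groups. Cardiac genes were low in the model libraries, summed at 51.3 to 95.4 FPKM in the model libraries, 34.7 to 20207 in the high dose libraries and 45.4 to 30159 in the control libraries, but also in high dose 1 and control 3. None of 16 cardiac genes stood apart. Myh7, the slow myosin of heart and skeletal muscle, which is outside that list, lay below all others with 0.217, 0.1204 and 0.569 FPKM in the model libraries, against 0.785, 7.86 and 61.6 FPKM in the high dose libraries and 31.3, 19.6 and 1.07 FPKM in the control libraries. Restricting the data to the 5 libraries low in cardiac genes left 4848 of 12895 genes without overlap. Only 2 libraries then faced the model group, so all 862 genes stayed and the count could only rise. The part of the cardiac genes in that rise was not tested.

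The metallothionein gene Mt1 was lowest in the model libraries and highest in the high dose libraries. Mt1, a zinc- and glucocorticoid-induced metal buffer, had 235, 195 and 273 FPKM in the model libraries, against 968, 2574 and 2151 FPKM in the high dose libraries and 558, 459.6 and 325 FPKM in the control libraries. None of its 3 groups overlapped, with the control libraries in the middle and high dose minus control at 2.000 (95% interval 1.04 to 2.96). Mt2 followed the same order, with 181, 72.9 and 152 FPKM in the model libraries, against 478, 2520.4 and 1486 FPKM in the high dose libraries and 239, 250.1 and 147 FPKM in the control libraries, although its model and control libraries overlapped. Of 8 metallothionein and zinc genes tested, Mt1 and Mt3 lay below and Mtf1 above, 37.5% against 6.68% of all genes.

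Lipid and stress pathways had members on one side or on both. Members without overlap made up 9.09% of the cholesterol synthesis and uptake list, against 6.68% of all genes. They made up 18.75% of the endoplasmic reticulum and amino acid stress list and 16.7% of the immediate early list. Of 22 cholesterol synthesis and uptake genes, Sqle (squalene epoxidase) and Msmo1 (methylsterol monooxygenase) lay below and none above, with a list median of -0.699. Sqle had 1.34, 2.43 and 2.81 FPKM in the model libraries, against 42.7, 6.53 and 3.36 FPKM in the high dose libraries and 3.53, 15.1 and 11.1 FPKM in the control libraries, where high dose 1 was by far the highest, and without high dose 3, 4 of the 22 lay below, against that same 10.6%. Chac1, Trib3 and Herpud1, targets of the ATF4 and unfolded protein responses, were the 3 of 16 stress genes below, and Chac1 had 1.24, 0.635 and 1.15 FPKM in the model libraries, against 5.51, 7.69 and 3.73 FPKM in the high dose libraries and 3.09, 1.66 and 2.16 FPKM in the control libraries. Of 18 immediate early genes, the AP-1 members Jun and Fosl2 lay above and Egr1, a growth factor-induced zinc finger, lay below. Jun had 108, 93.1 and 108 FPKM in the model libraries, against 27.4, 55.7 and 46.9 FPKM in the high dose libraries and 83.04, 86.4 and 30.8 FPKM in the control libraries, and Egr1 had 34.5, 23.6 and 35.6 FPKM in the model libraries, against 46.97, 81.5 and 94.3 FPKM in the high dose libraries and 252, 117 and 38.2 FPKM in the control libraries. No member of the lists for fatty acid synthesis, fatty acid oxidation, the respiratory chain, cholesterol efflux or interferon response stood apart with all 9 libraries. In all, 16 of 39 lists had no member without overlap.

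The position of the treated arch relative to the healthy one was then described for the members. The mean of the high dose libraries was farther from the model mean than the control mean was at 261 of 358 genes above (72.9%) and at 373 of 504 below (74.0%), against 61.9% of all genes tested. The high dose and control libraries were themselves without overlap at 65 of the genes above (18.2%) and 30 below (5.95%), against 8.68% of all genes. The 95% interval of high dose minus control lay within 1 log2 unit either side of 0 at 241 of 358 genes above (67.3%) and 218 of 504 below (43.3%), against 47.6% of all genes. For the remainder these libraries do not place the treated and healthy arch within 1 log2 unit of each other. In limma with a mean per group, no gene passed an adjusted p of 0.05 for high dose against control, with 701 genes (5.44%) under an unadjusted 0.05. The same fit called none for model against control (821 unadjusted, 6.37%) and none for model against high dose (1729 unadjusted, 13.4%), although without high dose 3 this last contrast called 46 genes, 11 higher and 35 lower.

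Single libraries decided many memberships. The nearest of the 6 other libraries was control 2 at 133 of the 358 genes above and high dose 3 at 67. Among the 504 genes below it was control 3 at 170 and high dose 3 at 154. Leaving out 1 library can only add to the 862 genes. It left 987 to 1719 without overlap, with 1719 without model 1, 1411 without model 3, 1363 without high dose 3 and 1475 without control 3. Genes just inside the rule were Rhob, with 211, 189 and 185 FPKM in model, 143, 101 and 185 in high dose and 123, 184 and 142 in control libraries, Brinp1 and Pard3, each with a step under 0.001. Just outside were Vstm2l, Tlx2 and Slc5a7, which were listed at 0 in all model libraries and in high dose 3. For 18 of the genes picked by the naming rule an exon overlaps a gene on the opposite strand in the GENCODE annotation, and the strand setting of the counting is not given in the sources used here. The partner of Nr1d1, Thra, had 30.4, 24.4 and 27.5 FPKM in the model libraries, against 67.98, 35.5 and 23.2 FPKM in the high dose libraries and 39.6, 55.5 and 37.4 FPKM in the control libraries, and the partner of Dbp, Sphk2, had 9.904, 8.79 and 7.34 FPKM in the model libraries, against 9.08, 11.8 and 7.45 FPKM in the high dose libraries and 7.74, 8.76 and 7.71 FPKM in the control libraries, and for both partners the groups overlapped.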

How the data were processed

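RNA sequencing of 9 mouse aortic arch libraries, 3 each from the model, high dose and control groups, was available as 1 table of FPKM per gene, made and deposited by the authors. Per the labels' protocols, total RNA was extracted with TRIzol and libraries were made from purified messenger RNA with an NEBNext Ultra kit. The submitters' processing notes name GRCm38.p5 and mm10. The aligner and the counter, with its strand setting, were not given in the sources. FPKM shares out each library's total, so a very abundant transcript lowers all others. Sample titles gave the groups, and all libraries carry the same batch label.

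Genes with at least 1 FPKM in at least 3 of 9 libraries were kept and analysed as log2(FPKM + 1). The non-overlap count used no test. The pooled comparison was fitted in limma 3.58.1 (R 4.3.3) with 2 arms, empirical Bayes with trend, 2-sided p and Benjamini-Hochberg adjustment over all genes tested, and the pairwise contrasts in limma with a mean per group. Count models and counting intervals do not apply to FPKM. The fit was also run on simulated data with independent noise for each gene. Those data lack the tissue differences shared across genes here, so they cannot show how the fit behaves on these libraries. The deposited names matched GENCODE M21 for 20641 of 21989 genes, and 27 names had been turned into dates by spreadsheet software and stayed as they are.

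The members and the 39 gene lists were chosen with earlier results of these data known. Named genes were, among those without overlap, the 12 of smallest p and the 5 of largest step in each direction, up to 3 per list, those just inside and outside the rule, and Apoe. The higher arm had to average 2 FPKM or more. Genes named outside that rule were chosen after their values were seen. Alternatives covered the pseudocount, the filters, 3 rescalings, each library left out, library subsets, weights, covariates and the replicate number as a block. The counts per list with a library left out were chosen after seeing the data, with the library differing by list. Such a count can only stay or rise, so it is a description and no support. The promoter motifs were searched in RefSeq windows. A few of the genes picked by the naming rule are not reported here.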

Additional observations from a re-analysis of the deposited data

Results flagged for a closer look

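Of 110 sets of 6 high dose and control values examined (71 genes picked by the naming rule and 39 list means), 9 held 1 library far from the other 5, where chance gives about 1 in 20. The number given is the gap from that library to its nearest neighbour divided by the whole range of the 6, on the log2(FPKM + 1) scale, where a value above 0.625 marks an outlying library. High dose 3 was the outlying high library for Adgre1, at 0.730, for the mean of foam cell and lipid-associated macrophage genes, at 0.679, and for the mean of the metalloproteinase and inhibitor list, at 0.648. High dose 1 was the outlying low library for Col6a3, at 0.647, and the outlying high library for Trib3, at 0.644, and for Brinp1, at 0.644. High dose 2 was high for the mean of the skeletal muscle list, at 0.650. Control 3 was low for Cirbp, at 0.661, and control 2 was high for Nedd9, at 0.641. In every case except the 3 list means the outlying library still lay on the same side of the model libraries as the other 5.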

How the results depend on the processing

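All 71 genes picked by the naming rule kept their direction under every alternative that was run. For the 67 of them without overlap this was fixed in advance for left-out libraries, filters and the pseudocount. It is therefore no support for those genes. Calls in the pooled limma fit were 1 with FPKM as deposited, a mean of at least 5 FPKM, haemoglobin genes removed, robust empirical Bayes or an adjusted threshold of 0.1. They were 0 with a pseudocount of 0.1, no filter, median-ratio rescaling, quantile normalization, 3 group means, the cardiac list mean as a covariate or the 5 libraries low in cardiac genes, and 906 with array weights, and the cause was not tested. Leaving out 1 library gave 0 to 16 calls. The genes without overlap numbered 555 with a mean of at least 5 FPKM, where fewer genes were tested. They numbered 4848 with the 5 libraries of low cardiac signal, where fewer libraries were compared, and 987 to 1719 with 1 library left out. With libraries left out, all 862 genes stayed and the count could only rise. What set the size of each rise was not tested. The remaining alternatives stayed within 1.5 times of 862, at 862 to 1044. A like count need not be the same genes: 685, 636 and 689 of the 862 still stood apart with median-ratio rescaling, quantile normalization and haemoglobin genes removed. For model against high dose, leaving out 1 library gave 0 to 46 calls. Correlations of deviations from the group mean ran from -0.52 to 0.31 for same-numbered libraries and from -0.38 to 0.44 for different-numbered ones. With 3 libraries per group these cannot decide whether replicate numbers pair the libraries. With the replicate number as a block the pooled fit made 0 calls, its smallest adjusted p being 0.0846, and the pairwise contrasts stayed at 0. Depth is unknown in absolute terms, and values near 0 FPKM rest on few fragments.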

Other observations

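Among pathways of the KEGG database, read as descriptions chosen after their values were seen, the extracellular matrix receptor pathway held 8 genes above and none below in the model libraries, of 61 tested, among 254 pathways examined and against 2.78% of all genes above and 3.91% below. Beside Col6a3, Fn1 and Tnc these were Col6a1 and Col6a2, the partner chains of type VI collagen, Hspg2 (perlecan), Itga6 (an integrin laminin receptor) and Gp9 (a platelet glycoprotein). The dopaminergic synapse pathway held 12 genes below and none above, of 108 tested, and the insulin secretion pathway 8 below and none above, of 57. The proteasome held 5 genes below and 1 above, of 39. The circadian rhythm pathway held 5 of 28 below, 3 of them subunits of the energy sensor AMPK (Prkaa2, Prkab1 and Prkag1) beside Cry2 and Nr1d1.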
